A study of Mus musculus with 8 samples.

Results

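The genes described here act in mitosis and the spindle checkpoint. They form a list of 33 genes chosen by function: checkpoint and anaphase regulators, the chromosomal passenger complex, kinetochore and centromere proteins, cohesion protectors, mitotic kinases, spindle and cytokinesis proteins, and regulators of mitotic transcription and chromatin. The choice was made with earlier results of these data known, so the shares of members set against all genes are descriptions only. Kinesins, cyclins and cyclin-dependent kinases were not included. Of the 33 genes, 29 had a probe on the array (46 probes), and 26 of these were measured, meaning that at least 1 probe stood above background on every array of at least 1 group. The 26 belong to the 7257 genes measured in the series.

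The study profiled total RNA from the livers of Balb/c mice aged 2 months on 8 Illumina bead arrays, 1 per sample. The mice were IL-4/IL-13-/- (KO, without the cytokine genes Il4 and Il13) or wild-type (WT), and received carbon tetrachloride (CCl4), a solvent that liver cytochrome P450 enzymes turn into a radical that kills hepatocytes, or vehicle. The groups were KO with CCl4 (n = 3), WT with CCl4 (n = 3), KO with vehicle (n = 1) and WT with vehicle (n = 1). The labels give neither the dose nor the time after CCl4. They also do not say that samples of a group came from separate mice, and p-values then reflect the spread between arrays, which could be technical only.

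An adult liver is mostly quiescent, and after a toxic injury hepatocytes and other liver cells re-enter the cell cycle to replace what was lost. In mitosis the kinetochores join chromosomes to spindle microtubules, the spindle checkpoint holds back the anaphase-promoting complex until every chromosome is attached, and Cdc20 then activates that complex so that sister chromatids separate. Most genes of this machinery are silent in resting cells and are transcribed together late in the cycle. The MuvB complex brings B-Myb and FoxM1 to their promoters, many of which hold a cell cycle genes homology region (CHR, TTTGAA) and CCAAT boxes bound by NF-Y. In bulk liver RNA, fewer dividing cells and less mitotic RNA per dividing cell cannot be told apart.

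The promoters of 5 members are shown because each holds a CHR and at least 1 CCAAT box and their genes had large CCl4 responses. They are RefSeq sequences of GRCm38.p6, 300 bases from 250 before to 50 after the annotated start, read 5′ to 3′ on the gene's strand, with TTTGAA and CCAAT (or ATTGG, its complement) in capitals. Cdc20 lies at chr4:118437294-118437593 (minus strand), Prc1 at chr7:80294201-80294500 (plus), Cdca3 at chr6:124829926-124830225 (plus), Plk1 at chr7:122159185-122159484 (plus) and Aurka at chr2:172370521-172370820 (minus).
Cdc20: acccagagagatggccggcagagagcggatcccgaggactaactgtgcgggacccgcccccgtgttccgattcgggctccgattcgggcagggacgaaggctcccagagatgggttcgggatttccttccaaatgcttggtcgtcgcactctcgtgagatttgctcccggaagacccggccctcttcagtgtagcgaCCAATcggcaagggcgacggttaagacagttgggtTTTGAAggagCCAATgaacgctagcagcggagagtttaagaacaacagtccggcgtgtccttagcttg
Prc1: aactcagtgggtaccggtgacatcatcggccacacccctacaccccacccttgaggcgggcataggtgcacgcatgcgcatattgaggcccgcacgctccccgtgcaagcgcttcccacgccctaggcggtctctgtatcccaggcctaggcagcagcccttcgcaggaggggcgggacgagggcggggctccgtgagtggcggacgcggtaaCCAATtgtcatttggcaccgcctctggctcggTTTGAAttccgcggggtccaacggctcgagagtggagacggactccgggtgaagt
Cdca3: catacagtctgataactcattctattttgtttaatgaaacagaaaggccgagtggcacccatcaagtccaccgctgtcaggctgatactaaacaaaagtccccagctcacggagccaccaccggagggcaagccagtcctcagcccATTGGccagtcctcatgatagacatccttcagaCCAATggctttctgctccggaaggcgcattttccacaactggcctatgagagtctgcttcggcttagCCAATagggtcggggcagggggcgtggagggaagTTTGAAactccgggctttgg
Plk1: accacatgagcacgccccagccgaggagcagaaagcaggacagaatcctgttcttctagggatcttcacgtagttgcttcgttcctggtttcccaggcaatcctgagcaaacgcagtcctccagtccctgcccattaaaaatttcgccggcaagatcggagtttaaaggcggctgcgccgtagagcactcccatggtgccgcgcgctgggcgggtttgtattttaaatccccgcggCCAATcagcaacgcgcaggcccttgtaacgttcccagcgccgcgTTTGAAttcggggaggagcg
Aurka: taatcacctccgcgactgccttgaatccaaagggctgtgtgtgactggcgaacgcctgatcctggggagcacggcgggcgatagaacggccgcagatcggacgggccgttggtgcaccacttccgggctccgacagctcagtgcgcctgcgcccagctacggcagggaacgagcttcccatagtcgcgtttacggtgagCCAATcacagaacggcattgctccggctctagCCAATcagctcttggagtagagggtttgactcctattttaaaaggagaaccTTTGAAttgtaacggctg

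In these 5 windows the CHR lies close to the end of the sequence, near the start site, with at least 1 CCAAT box upstream of it. RefSeq windows were available for 27 members (28 windows). TTTGAA was found, on either strand, in 19 of the 28 windows (67.9%), against 17.9% of the 32851 mouse promoter windows of the same length. CCAAT was found in 20 (71.4%, against 37.4% of all windows), and both motifs in 16 (57.1%, against 6.95%). An E2F motif (TTCCCGC or TTGGCGC, both strands) was found in 4 windows (14.3%, against 6.81%). Of the 18 members with a CHR, 17 had one within 50 bases of the annotated start. The same position was not counted over all windows, so this number has no background to be set against. A match only describes the letters in the window. The windows of Birc5, Nusap1 and Mad2l1 held neither a CHR nor a CCAAT box. Averaged over both genotypes, their log2 responses to CCl4 (4.81, 3.74 and 3.54) were larger than that of Aurka (3.11), shown above. Whether motifs and responses go together was not tested. CHR and CCAAT matches can share no more than an end letter, while TTGGCGC can share the letters TTGG with a CCAAT match on the other strand. Among the 9 members with a window that were lower in KO after CCl4, described further on, 8 held a CHR and 7 a CCAAT box, and among the 12 measured members with a window that were not called, 7 held each.

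**Figure D1:**
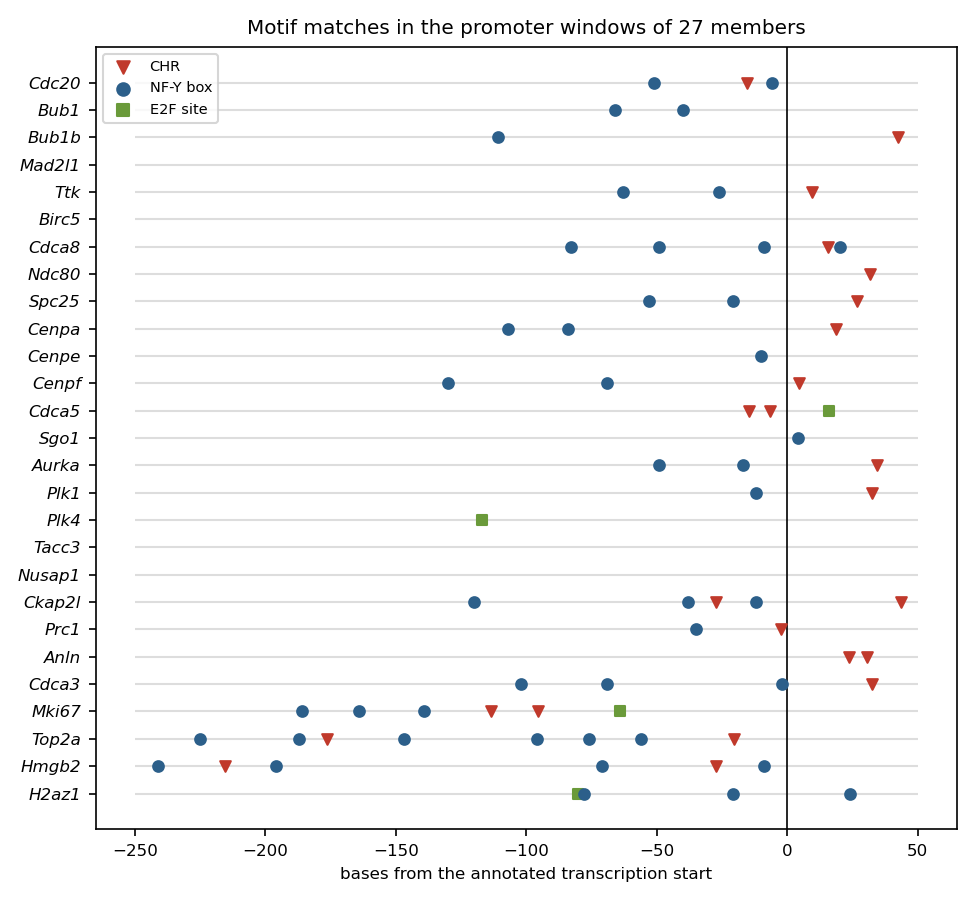
Distance from the annotated transcription start (bases, negative upstream) of each CHR, NF-Y (CCAAT box) and E2F motif in the RefSeq promoter windows, 1 row for each of 27 members (the first window where a gene has several). Most CHR marks lie within 50 bases of the start, and in most rows that hold both an NF-Y mark lies upstream of the CHR.

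Normalised values are log2 intensities after background correction and quantile normalization, and a change is called at an adjusted p under 0.05 over the 7257 genes. Median raw intensities were 63.6 to 66.9 on the KO CCl4 arrays, 68.5 to 76.9 on the WT CCl4 arrays, 60.9 on the KO vehicle array and 66.6 on the WT vehicle array, so the KO CCl4 arrays were all dimmer than the WT ones before normalization. The probes for Il4 and Il13, the deleted genes, were above background on 0 of 8 arrays in either genotype, so they do not check the genotype labels. Of 10 hepatocyte markers, 9 were measured, with a summed level between 85060 and 107670 normalised intensity units on every array. The probe for Alb was dim, near 6 on the log2 scale.

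Mitotic genes rose strongly after CCl4 in both genotypes. In KO livers 24 of the 26 measured members rose with CCl4 (92.3%, against 13.0% of all genes), and in WT livers 23 rose (88.5%, against 12.4%). In all 3 CCl4 arrays the level was above that of vehicle for 24 members in KO (against 39.6% of all genes) and for 24 in WT (against 35.3%). None fell in either genotype, where 12.8% of all genes fell in KO and 11.6% in WT. In both genotypes together 22 members rose (84.6%, against 6.46% of all genes). The median log2 response was 2.43 in KO and 2.90 in WT, against -0.0097 and -0.018 over all genes. Each response rests on 3 CCl4 arrays and 1 vehicle array, which was assumed to vary like the CCl4 arrays. Scaling moved the split of calls over all genes, from 897 higher and 845 lower in WT to 1152 and 653 with median scaling and 1223 and 468 with the deposited values (all-gene median 0.19), and from 941 and 928 in KO to 991 and 623 with the deposited values, while 23 or 24 members rose in each genotype under these settings.

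Markers of other cell types changed with CCl4 too. All 3 measured neutrophil markers rose in both genotypes, with a summed level of 1917 to 7621 on the KO CCl4 arrays, against 636 in KO with vehicle, and 1977 to 2676 on the WT CCl4 arrays, against 483 in WT with vehicle. In WT, 5 of 6 stellate markers rose and 1 fell, while 1 rose and 1 fell in KO, and 3 of 4 erythroid markers fell in WT and 0 in KO. Over all genes 13.0% rose and 12.8% fell in KO, and 12.4% rose and 11.6% fell in WT. Of the other lists, Cd14 (macrophage) and Lyve1 (endothelium) rose in both genotypes, and Cyp2e1 (hepatocyte) fell in both. Stab2 (endothelium) and Thy1 (T and NK cell) fell in KO only. The part of these cells in the rise of the mitotic genes was not tested.

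Part of the count of members that rose with CCl4 was fixed by the detection filter. On the vehicle arrays only 10 members were above background in KO and 7 in WT, against 23 to 25 on the KO CCl4 arrays and 26 on each WT CCl4 array. 16 of the 26 members were above background on neither vehicle array (5.40% of all genes were not) and entered only through the CCl4 arrays of 1 or both genotypes, so they had to be higher there. Of these 16, 4 (Bub1b, Cdca8, Cdca5 and Ckap2l) entered through the WT CCl4 arrays alone, which does not fix their response in KO. The log2 responses of the 16 are fitted values, and a fold is given for them as a bound. With every member that was below background in vehicle set at its bound, the median log2 response was 1.74 in KO (16 members at a bound) and 2.17 in WT (19 members). The 7 members above background on all 8 arrays do not depend on the filter in this way. All 7 rose in KO (Mad2l1, Spc24, Spc25, Cenpa, Cdca3, Hmgb2 and H2az1, against 10.7% of the 5700 genes of this kind) and 5 rose in WT, Spc24 and Spc25 excepted (against 9.77%).

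**Figure D2:**
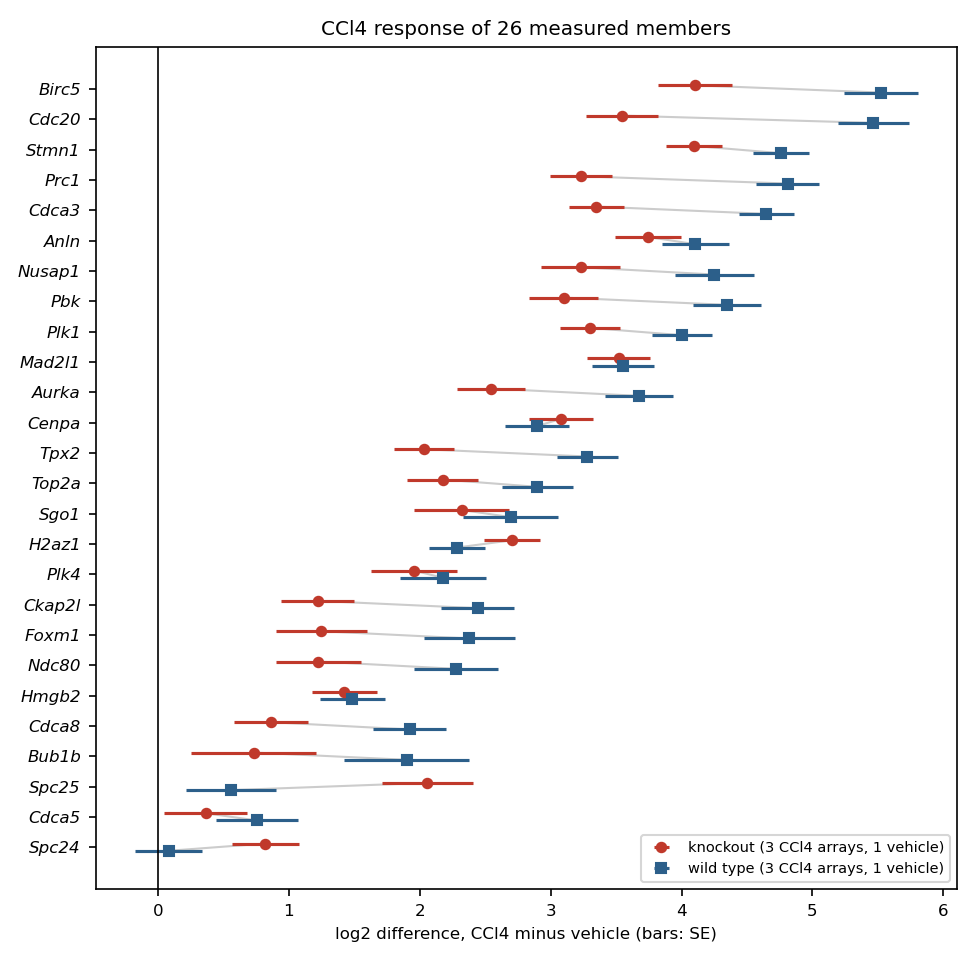
CCl4 response of each measured member (log2 CCl4 minus vehicle) in KO and in WT, with bars for the standard error of the fit, ordered by the mean response of both genotypes. All values lie above 0, from 0.36 to 4.10 in KO and from 0.08 to 5.52 in WT, and the KO point lies left of the WT point for 22 of the 26 members.

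Birc5, which encodes survivin of the chromosomal passenger complex, had the highest fitted response in each genotype. It had 9.85, 10.21 and 10.09 in KO with CCl4, against 5.95 in KO with vehicle. In WT it had 10.26, 10.94 and 10.83 with CCl4, against 5.16 with vehicle. Every CCl4 array was far above its vehicle array, which was not above background. Birc5 was at least 15.9-fold higher with CCl4 in KO (adjusted p = 6.6e-06) and at least 23.3-fold higher in WT (adjusted p = 3.46e-07), and as bounds these do not rank it above the other strong responders.

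Cdc20, the activator of the anaphase-promoting complex, had 9.85, 9.63 and 9.49 in KO with CCl4, against 6.11 in KO with vehicle. In WT it had 10.38, 10.97 and 10.96 with CCl4, against 5.30 with vehicle, where it was not above background. All CCl4 values again stood clear of the vehicle values, and the response in WT was at least 24.8-fold (adjusted p = 2.95e-07). In KO the log2 response was 3.54 ± 0.27 (SE, adjusted p = 1.44e-05). Stmn1, the microtubule-destabilising protein stathmin, had 10.19, 10.11 and 10.27 in KO with CCl4, against 6.09 in KO with vehicle. In WT it had 10.38, 10.63 and 10.43 with CCl4, against 5.71 with vehicle. Its log2 response was 4.10 ± 0.21 in KO (adjusted p = 2.18e-06), and in WT it was at least 20.3-fold (adjusted p = 1.97e-07).

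By role, the spindle and cytokinesis genes had median responses of 3.23 in KO and 4.18 in WT over 6 measured genes, all of which rose in both genotypes. The 3 measured checkpoint and anaphase genes had medians of 3.52 in KO and 3.55 in WT, and 2 of them rose in KO and 3 in WT. The 4 mitotic kinases all rose as well, with medians of 2.82 in KO and 3.84 in WT. Pbk, a mitotic MAPKK-like kinase, was at least 8.35-fold higher with CCl4 in KO and at least 8.95-fold higher in WT. Plk4, the kinase of centriole duplication, was at least 1.79-fold higher in KO and at least 1.82-fold higher in WT (fitted log2 responses 1.95 and 2.18). Mad2l1, whose product Mad2 binds and holds back Cdc20, rose in both, by 3.52 ± 0.24 in KO and 3.55 ± 0.24 in WT on the log2 scale (SE). Cenpa, the centromeric histone H3 variant, rose by 3.08 ± 0.24 in KO and 2.89 ± 0.24 in WT. Among the regulators and chromatin genes all 5 measured members rose in both genotypes. They include the F-box-like Cdca3 (3.35 in KO and 4.65 in WT) and the histone variant H2az1 (2.71 and 2.29). The transcription factor Foxm1 was at least 1.99-fold higher in KO and at least 2.65-fold higher in WT (fitted log2 responses 1.25 and 2.38). The KO call of Foxm1 was lost without KO replicate 3 (adjusted p 0.0576), and that of Cdca8 (borealin) without KO replicate 2 or 3 or WT replicate 1 (0.102, 0.0892 and 0.0591). H2az1 has a close paralogue, H2az2, and how far its probe also binds that transcript could not be checked.

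Averaged over both genotypes, the smallest responses were those of Spc24, Spc25 and Cdca5. Spc24 and Spc25 are subunits of the Ndc80 complex, which binds microtubules at the kinetochore. Spc24 had 9.12, 9.02 and 8.89 in KO with CCl4, against 8.19 in KO with vehicle, and in WT it had 8.48, 8.99 and 9.07 with CCl4, against 8.77 with vehicle. In KO all CCl4 arrays were above vehicle and the change was called (0.82 ± 0.26, SE, adjusted p = 0.0379). In WT the CCl4 arrays lay on both sides of the vehicle value (0.08 ± 0.26, adjusted p = 0.854). A second Spc24 probe disagreed in WT, with a log2 response of 1.99 (adjusted p over all probes 8.12e-05), and gave 1.60 in KO (adjusted p 0.00048). The Spc24 call in KO was lost without any 1 of the KO CCl4 arrays (adjusted p 0.0866, 0.0762 and 0.0558 without replicates 1, 2 and 3).

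Spc25 had 9.46, 9.04 and 9.11 in KO with CCl4, against 7.15 in KO with vehicle. In WT it had 9.19, 10.13 and 10.11 with CCl4, against 9.25 with vehicle. The log2 difference between the vehicle arrays, KO minus WT, was -2.10, and the response was 2.06 ± 0.35 in KO (SE, adjusted p = 0.00198) and 0.56 ± 0.35 in WT (adjusted p = 0.267). Another Spc25 probe was called in both genotypes, with 2.01 in KO (adjusted p over all probes 0.00172) and 1.16 in WT (0.0278). Ndc80, the microtubule-binding subunit itself, rose in both genotypes, at least 1.31-fold in KO and at least 1.89-fold in WT. Its fitted log2 responses were 1.23 ± 0.32 in KO and 2.28 ± 0.32 in WT.

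Cdca5 encodes sororin, which protects cohesion between sister chromatids. It had 6.27, 5.60 and 6.33 in KO with CCl4, against 5.70 in KO with vehicle, and 6.05, 6.64 and 6.30 in WT with CCl4, against 5.57 in WT with vehicle. It was close to background throughout and was called in neither genotype (0.36 ± 0.31 in KO and 0.76 ± 0.31 in WT, SE; adjusted p 0.417 and 0.103). The other cohesion gene, Sgo1 (shugoshin, which guards centromeric cohesin), rose in both genotypes, at least 1.87-fold in KO and at least 2.30-fold in WT. Its fitted log2 responses were 2.32 ± 0.36 in KO and 2.69 ± 0.36 in WT. Bub1b, which encodes the checkpoint protein BubR1, had 6.15, 6.18 and 4.98 in KO with CCl4, against 5.04 in KO with vehicle, and 6.18, 7.31 and 6.68 in WT with CCl4, against 4.82 in WT with vehicle. It was called in WT, at least 1.50-fold higher (adjusted p = 0.0147), and not in KO (0.73 ± 0.48, adjusted p = 0.276), where 1 CCl4 array lay at the vehicle level.

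After CCl4, a subset of the mitotic genes was lower in KO livers than in WT livers. Of the 26 measured members, 10 were lower in KO (38.5%, against 3.60% of all genes), and 0 were higher (against 2.89%): Tpx2, Ckap2l, Plk1, Cdc20, Top2a, Prc1, Aurka, Nusap1, Cdca8 and Anln. Their levels in KO were between 1.62-fold (Anln) and 2.58-fold (Ckap2l, close to background in KO) below those in WT. The median log2 difference of the members was -0.60, against -0.013 over all genes, and 23 of 26 differences were below 0 (51.6% of all genes). For 15 members all 3 KO arrays lay below all 3 WT arrays (57.7%, against 16.3% of all genes), and for 0 did they lie above (against 14.0%). Of the 26 members, 4 (Bub1b, Cdca8, Cdca5 and Ckap2l) had entered through the WT CCl4 arrays alone and 0 through the KO arrays alone. Entry by this route favours a lower level in KO. Among the 22 members above background on all 6 CCl4 arrays, 8 were lower in KO, against 2.94% of the 6093 genes of that kind.

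The count depends on single arrays and on the scaling. Without KO replicate 3 it was 5, without KO replicate 2 it was 6, and without each other CCl4 array in turn it was 8 or 9. With median scaling it was 16, with the deposited values it was 20 and with no detection filter it was 4, but over all genes the split of calls also moved, to 706 lower against 172 higher with median scaling and 1659 against 99 with the deposited table, from 261 against 210. The median difference over all genes was -0.17 with median scaling and -0.34 with the deposited table, and the members' median minus that of all genes was -0.58 in both, against -0.59 in the analysis reported. The KO CCl4 arrays were also dimmer before normalization, as given above, and the part of this brightness in the members' difference was not tested.

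**Figure D3:**
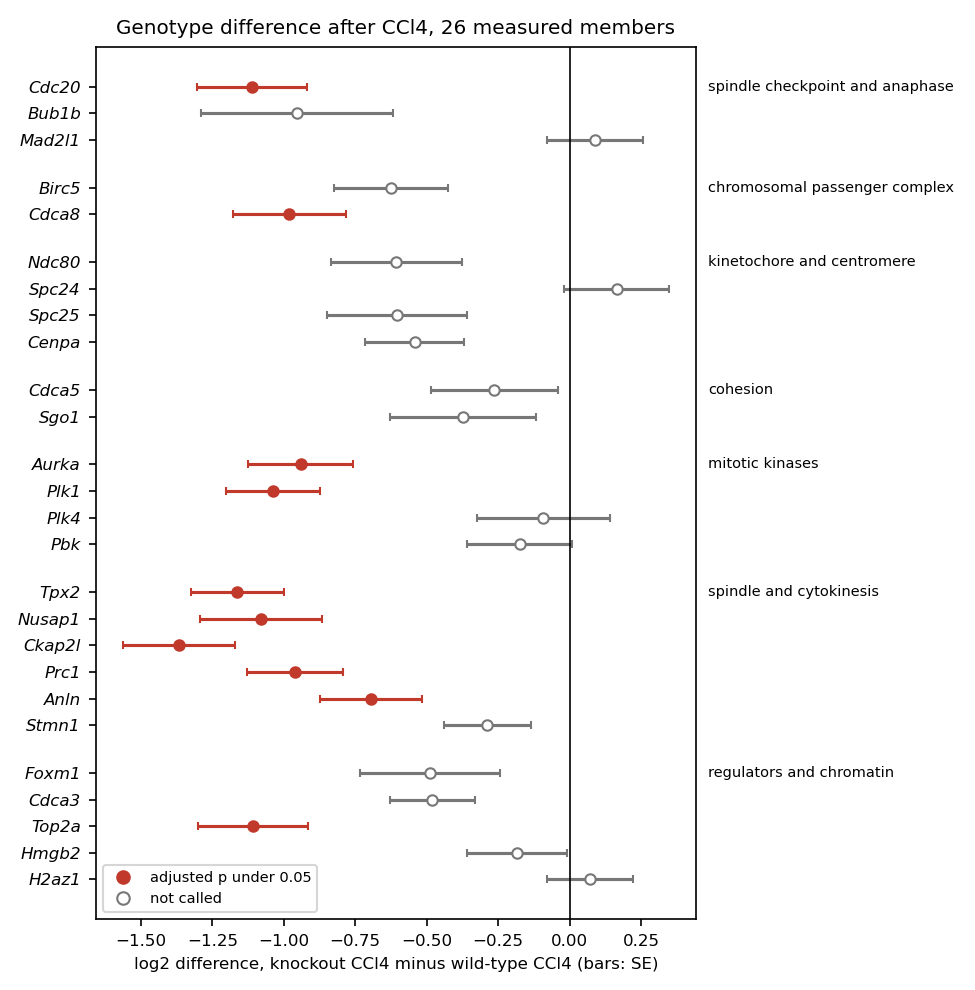
Difference between KO and WT after CCl4 (log2) for each measured member, with bars for the standard error, grouped by role; filled marks are members called at an adjusted p under 0.05. 23 of the 26 points lie left of 0, from Ckap2l at -1.37, and Spc24 at 0.16 is the farthest to the right.

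Of the 10 genes lower in KO, 5 were spindle and cytokinesis genes, of which 6 were measured, with a median difference of -1.02. Tpx2, which activates Aurora A and nucleates spindle microtubules, had 6.66, 6.70 and 6.83 in KO with CCl4, against 7.74, 8.14 and 7.80 in WT with CCl4. The groups did not overlap, and the level in KO was 2.24-fold lower (-1.16 ± 0.16, SE, adjusted p = 0.00329). Ckap2l, a spindle-associated protein, had 5.91, 5.91 and 5.87 in KO, against 6.83, 7.59 and 7.38 in WT. Its KO values were nearly identical and close to background, with 1 of 3 arrays above it, and the difference was -1.37 ± 0.20 (adjusted p = 0.00376).

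Prc1, which bundles microtubules of the central spindle, had 9.98, 9.52 and 9.89 in KO with CCl4, against 10.64, 10.77 and 10.87 in WT with CCl4. Nusap1, a spindle microtubule-binding protein, had 8.77, 8.15 and 8.34 in KO, against 9.13, 9.80 and 9.57 in WT. Neither gene overlapped between genotypes, with differences of -0.96 ± 0.17 for Prc1 (SE, adjusted p = 0.0117) and -1.08 ± 0.21 for Nusap1 (adjusted p = 0.0184). Nusap1 lost its call without KO replicate 2 or 3 (adjusted p 0.0685 and 0.0697) and Prc1 without KO replicate 2 (0.0520). Anln, the contractile ring scaffold anillin, differed by -0.69 ± 0.18 (adjusted p = 0.0452) and lost its call without any 1 CCl4 array (0.0687 to 0.160). Stmn1 was the 1 spindle gene not called, at -0.29 ± 0.15 (adjusted p = 0.262), although its groups did not overlap.

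Of the 4 mitotic kinases, Plk1 and Aurka were lower in KO. Plk1, the polo-like kinase of mitotic entry and spindle assembly, had 8.01, 8.10 and 8.22 in KO with CCl4, against 8.98, 9.39 and 9.08 in WT with CCl4. Aurka, the centrosomal Aurora A kinase that Tpx2 activates, had 7.63, 7.51 and 7.22 in KO, against 8.09, 8.53 and 8.56 in WT. In both genes the 3 KO arrays were below the 3 WT arrays. The difference was -1.04 ± 0.16 for Plk1 (SE, adjusted p = 0.00591, 2.05-fold) and -0.94 ± 0.18 for Aurka (adjusted p = 0.0166, 1.92-fold), and that of Aurka lost its call without KO replicate 2 or 3 (adjusted p 0.0546 and 0.0710). Plk4 and Pbk overlapped between genotypes and were not called, at -0.09 ± 0.23 (95% confidence interval -0.60 to 0.42) and -0.18 ± 0.18 (-0.58 to 0.23).

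In the checkpoint group Cdc20 and Mad2l1, which encode an activator and its inhibitor, stood apart in their values. Cdc20 averaged 9.66 ± 0.18 in KO with CCl4 and 10.77 ± 0.34 in WT with CCl4 (SD, n = 3 each), without overlap of the arrays listed above. Its difference was -1.11 ± 0.19 (SE, adjusted p = 0.0113, 2.16-fold), all 4 of its measured probes were lower in KO, and its call was lost without KO replicate 3 (adjusted p 0.0534). Mad2l1 had 10.59, 10.33 and 10.70 in KO, against 10.24, 10.57 and 10.55 in WT, so that the groups overlapped, and its difference was 0.09 ± 0.17 (adjusted p = 0.781, 95% confidence interval -0.28 to 0.46). The difference between these 2 genes was not itself tested. Bub1b differed by -0.95 ± 0.34 (adjusted p = 0.112) with wide scatter between arrays.

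Top2a, the topoisomerase that untangles sister chromatids, had 7.44, 7.07 and 6.81 in KO with CCl4, against 7.99, 8.25 and 8.41 in WT with CCl4. The groups did not overlap and the difference was -1.11 ± 0.19 (SE, adjusted p = 0.0113). It was the only regulator or chromatin gene called on the probe that stood for each gene. Foxm1 overlapped on that probe (-0.49 ± 0.24, adjusted p = 0.24), while its other probe was called, at -0.76 (adjusted p over all probes 0.0262). Hmgb2, a chromatin protein, and H2az1 were not called, at -0.19 ± 0.18 and 0.07 ± 0.15, with 95% confidence intervals of -0.57 to 0.20 and -0.26 to 0.40.

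In the chromosomal passenger complex, Cdca8 (borealin) was not above background on any KO array and was at least 1.65-fold lower there (adjusted p = 0.0199), with a measured log2 difference of -0.98. It lost its call without KO replicate 1 or 3 or WT replicate 1 (adjusted p 0.0810, 0.0626 and 0.0796). Birc5 did not overlap between genotypes and was not called, at -0.63 ± 0.20 (SE, adjusted p = 0.0855), and its 3 probes gave -0.46, -0.63 and -0.35. None of the 4 measured kinetochore and centromere genes was called. Their differences ran from -0.61 (Ndc80) to 0.16 (Spc24), with Cenpa at -0.54 ± 0.17 (adjusted p = 0.0846). The cohesion genes were not called either, at -0.37 ± 0.26 for Sgo1 and -0.26 ± 0.22 for Cdca5. Over the 16 members not called, the adjusted p ran from 0.0793 to 0.836.

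**Figure D4:**
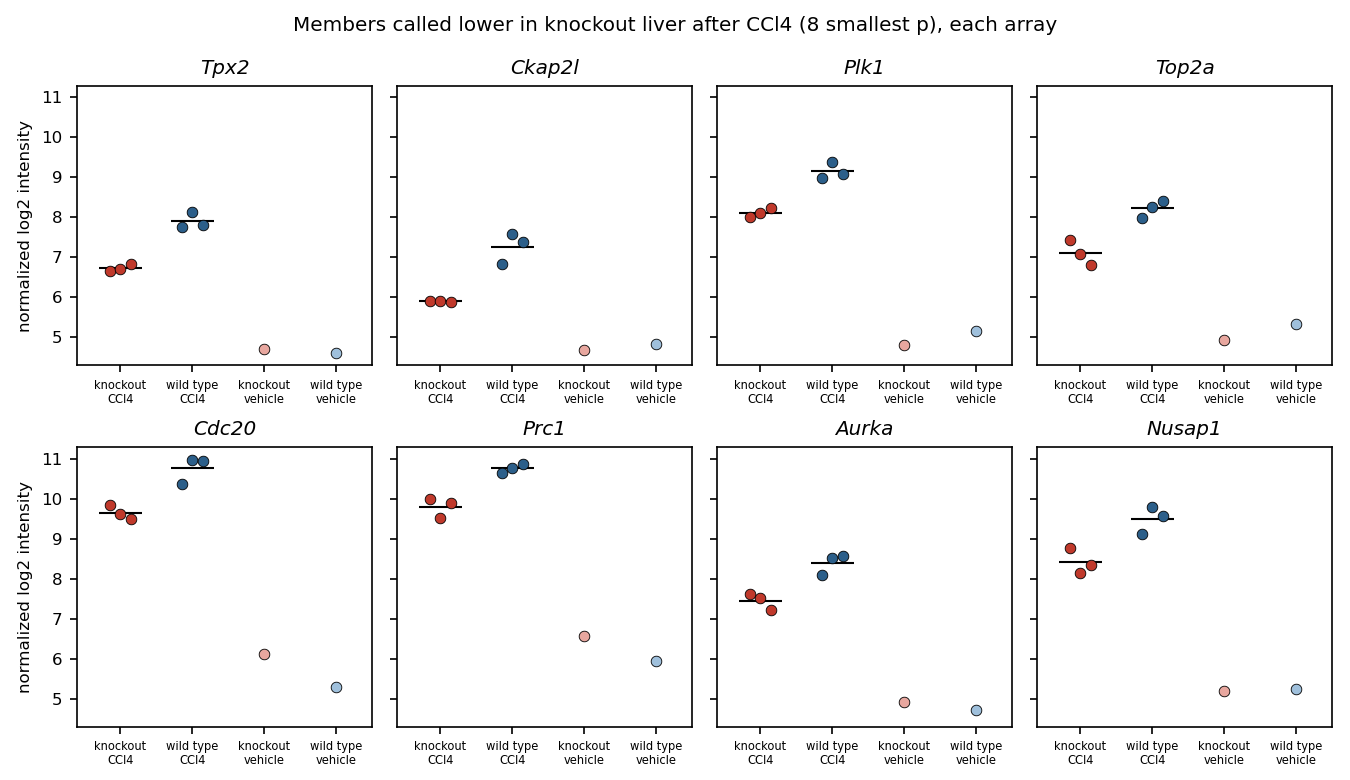
Normalised log2 intensity on each of the 8 arrays for the 8 members with the smallest p between genotypes after CCl4, 1 panel per gene; points are arrays and lines are the means of the 3 CCl4 arrays. In every panel the 3 KO CCl4 points lie below the 3 WT CCl4 points, and both lie above the vehicle points.

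The members varied together from array to array. The median correlation between pairs of members in their deviations from the group mean was 0.537 over 325 pairs and 6 CCl4 arrays, which share each array's RNA and normalization. The same correlation was not computed for other genes, so its size cannot be judged. WT replicate 1 had the lowest value of its group for 23 of the 26 members (29.6% of all genes were lowest there), and WT replicate 2 had the highest for 16 (against 33.6%). In KO, replicate 1 was highest for 15 members (against 34.8%). Relative to the mean of the 6 CCl4 arrays, the members' median deviation was -0.15, -0.41 and -0.34 on KO replicates 1, 2 and 3, against 0.03, 0.55 and 0.42 on WT replicates 1, 2 and 3. All KO medians were thus below all WT medians, with WT replicate 1 nearest to KO. Left out in turn, the arrays gave members' median differences between -0.75 (without WT replicate 1) and -0.47 (without WT replicate 2).

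**Figure D5:**
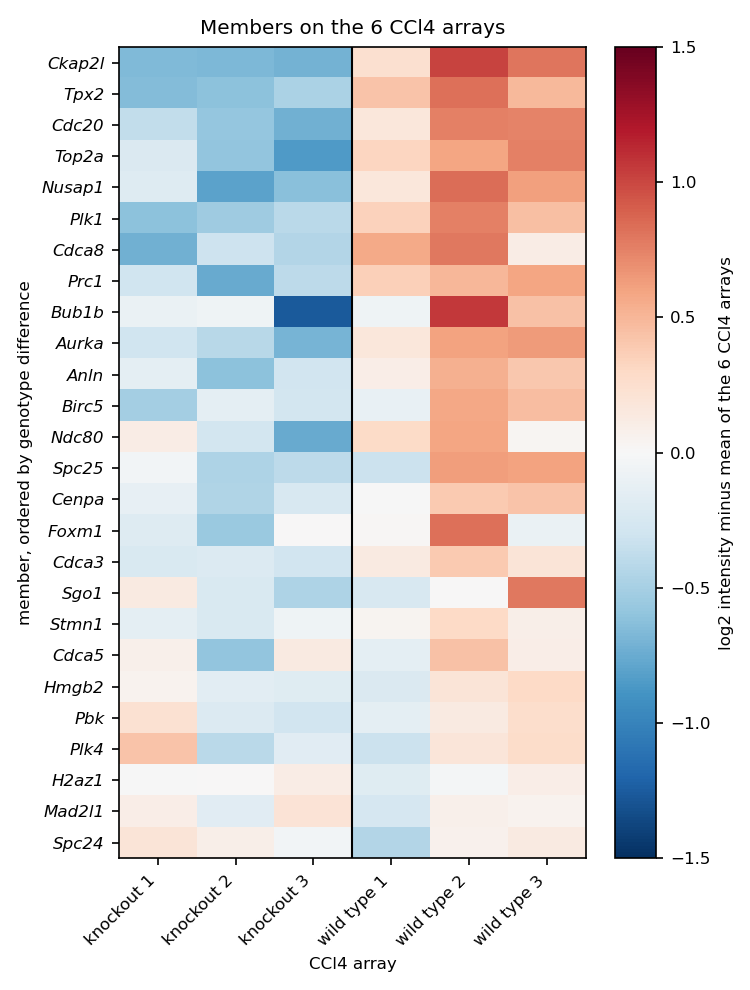
Deviation of each measured member (rows) from its mean over the 6 CCl4 arrays (columns), on the log2 scale in colour, ordered by the genotype difference. The KO columns are mostly below the mean, WT replicates 2 and 3 mostly above it, and WT replicate 1 lies between.

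Whether the response to CCl4 itself differed between genotypes was tested as an interaction, which adds the 2 single vehicle arrays to the error. It was called for 0 of the 26 members in limma (0.179% of all genes were called in each direction), with 13 at an unadjusted p under 0.05 (50%, against 19.9% of all genes). The response was smaller in KO than in WT for 22 of 26 members (84.6%, against 50.8% of all genes), with a median interaction of -0.87. Cdc20 had the lowest adjusted p, at -1.92 ± 0.39 (SE, adjusted p = 0.0629), and it passed the threshold with median scaling, the deposited table, array weights, trended robust variances or without WT replicate 1 (adjusted p 0.0226 to 0.0494). Prc1 followed at -1.58 ± 0.34 (adjusted p = 0.0730) and Cdca3 at -1.30 ± 0.30 (0.0809). Cdc20 and Prc1 were among the 19 members not above background on the WT vehicle array, so the sizes of these interactions depend on fitted values below background. Spc25 ran the other way, at 1.50 ± 0.49 (adjusted p = 0.141). Across the 26 members, whose responses in the 2 genotypes share no array, the KO and WT responses had a Pearson r of 0.854 and a Spearman rho of 0.872, given as a description.

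With vehicle the genotypes could be compared on 1 array each, without a test. The median difference of the members, KO minus WT with vehicle, was 0.10 (-0.0086 over all genes), and 10 of 26 members were lower in KO (38.5%, against 50.9% of all genes). The differences ran from -2.10 for Spc25 to 1.08 for Pbk, which had 6.02 in KO with vehicle and 4.95 in WT with vehicle, neither above background. Cdc20, called lower in KO after CCl4, had 6.11 in KO with vehicle and 5.30 in WT with vehicle.

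The rest of the mitotic machinery was read from 6 lists of other genes, with 112 genes on the array and 71 measured. With CCl4, 30 rose and 0 fell in KO (13.0% of all genes rose and 12.8% fell), and 33 rose and 2 fell in WT (12.4% and 11.6% of all genes). Of the 71, 28 were above background on neither vehicle array and passed the filter through the CCl4 arrays of 1 or both genotypes alone, so they had to be higher on those arrays. Among the other 43, 7 rose in KO and 9 in WT. Of the 5700 genes above background on all 8 arrays, 10.7% rose in KO and 9.77% in WT. Whether the 43 differ from such genes was not tested. After CCl4, 12 of the 71 were lower in KO than in WT (the same 3.60% of all genes applies) and 0 were higher. Among these 12, Ska3 and Depdc1b were above background on no KO CCl4 array and on neither vehicle array. They passed the filter through the WT CCl4 arrays alone, so they had to be lower in KO. How many of the others passed in this way was not counted. Of 20 other kinetochore and centromere genes, 14 rose in KO and 13 in WT, and 3 were lower in KO, among them Spdl1 (the dynein adaptor Spindly, -0.82 ± 0.16, SE, adjusted p = 0.0165). Cenpp and Cenpn, of the constitutive centromere network, were at least 2.24-fold and 1.24-fold higher with CCl4 in KO and at least 2.75-fold and 1.70-fold higher in WT. In the list of condensin, cohesin and separase 13 genes were measured, without separase itself. Of the 13, 5 rose in KO and 6 in WT, and 2 were lower in KO, including the condensin subunit Ncapd2 (-0.81 ± 0.17, adjusted p = 0.0229). Its fellow condensin subunit Ncaph was not called between genotypes (-0.46 ± 0.21, adjusted p = 0.196).

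Of 11 other spindle, centrosome and cytokinesis genes, 7 rose in each genotype and 1 fell in WT, and 4 were lower in KO. Spag5 (astrin, a spindle and kinetochore protein) was one of these (-0.92 ± 0.21, SE, adjusted p = 0.0287). Knstrn, its binding partner at the kinetochore, was not called between genotypes (-0.57 ± 0.19, adjusted p = 0.0888) and was at least 3.99-fold higher with CCl4 in KO and at least 5.63-fold higher in WT. The remaining lists held fewer calls, and differences between lists were not tested. In the list of the anaphase-promoting complex and its E2 enzymes 12 genes were measured, with no E2 enzyme among them. With CCl4, 1 of the 12 rose in KO and 2 in WT, with Anapc15 called in both (1.35 ± 0.26 in KO and 1.06 ± 0.26 in WT). After CCl4, 1 was lower in KO than in WT, and the median difference between genotypes was 0.03. In the list of MuvB, B-Myb and E2F regulators 11 genes were measured: E2f1 to E2f6, Tfdp1, Tfdp2, Rb1, Rbl1 and Lin54. B-Myb was thus not measured, and Lin54 was the only MuvB subunit. Of the 11, 2 rose in KO and 3 in WT, with 1 lower in KO after CCl4 and a median difference of 0.16. E2f1 and the pocket protein gene Rbl1 rose in both genotypes, and E2f1 did not differ detectably after CCl4 (-0.07 ± 0.20, adjusted p = 0.861). Of 4 mitotic entry genes, 1 rose in KO and 2 in WT, and Gtse1, a G2-phase microtubule protein, was lower in KO (-0.97 ± 0.23, adjusted p = 0.0340).

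Some markers of other liver cell types were called between genotypes after CCl4. Lower in KO were 1 of 6 stellate markers (Col1a1) and 2 of 5 endothelial markers (Lyve1 and Stab2), against 3.60% of all genes. Col1a1 was above background on no KO CCl4 array and on neither vehicle array, and entered through the WT CCl4 arrays alone. In the lists of hepatocytes, macrophages, neutrophils, T and NK cells and erythroid cells, 0 markers were called. The summed levels below are carried by each list's brightest probes. The summed level of stellate and mesenchymal markers (6 of 9 measured) was 6108 to 6698 on the KO CCl4 arrays, against 7625 to 8699 on the WT CCl4 arrays, with 6062 in KO with vehicle and 4650 in WT with vehicle. That of sinusoidal endothelial markers (5 of 7 measured) was 4411 to 4748 in KO, against 5631 to 6209 in WT, with 3565 and 4801 in KO and WT with vehicle. Neither sum overlapped between genotypes, whereas hepatocyte markers (85913 to 90216 in KO, against 85060 to 101716 in WT) and monocyte and macrophage markers (6 of 9 measured, 3272 to 4603 in KO, against 3349 to 4403 in WT) did. Taken singly, 16.3% of all genes had all 3 KO arrays below all 3 WT arrays. Neutrophil markers (3 of 7 measured) were 5912, 1917 and 7621 in KO, against 2676, 1977 and 2616 in WT. The erythroid sum (4 of 5 measured) ran from 6815 to 11484 in KO, against 7686 to 18017 in WT. Of T and NK cell markers only Thy1 was measured (1 of 9), and 0 of 5 B and plasma cell and 0 of 4 cholangiocyte markers were. The part of these cell types in the lower mitotic gene levels of KO livers was not tested.

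Of the 33 genes, 7 gave no tested value. Bub1 (the checkpoint kinase at kinetochores) and Cenpe (a kinetochore motor) had a probe that was above background on no array, with lowest detection p-values of 0.288 and 0.467. The probe for Ttk (Mps1, the kinase at the top of the checkpoint) was above background on 1 WT CCl4 array. The kinase gene Aurkb, the kinetochore gene Cenpf, the spindle gene Tacc3 and the proliferation marker gene Mki67 were not analysed here.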

How the data were processed

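Total RNA of 8 mouse liver samples was extracted with Trizol, cleaned on a column with DNase and amplified into biotinylated cRNA, per the labels' protocols. The deposited table gives 1 linear bead intensity per probe and array without normalization and, per the file headers, a detection p-value against negative controls. The deposited value table holds the same intensities minus 1 constant per array (48.6 to 56.8), with medians from 12.3 to 20.0, for a reason not given in the sources used here. It is linear and was used only as an alternative. The sources do not give the scanner software.

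Intensities were processed in R 4.3.3 by the neqc function of limma 3.58.1 (offset 16, negative controls inferred from detection p-values). Probes were kept when all arrays of 1 or more groups had a detection p-value under 0.01 (10128 of 25697), and symbols came from the platform annotation (1 symbol for 23978 probes, several for 0, none listed for 1719). Each gene was represented by its brightest probe on average. Group means of 4 groups were fitted with lmFit and eBayes over 8 arrays (4 residual degrees of freedom), 2-sided, adjusted by Benjamini-Hochberg over 7257 genes. The median standard error of the genotype difference was 0.17, which the number of arrays limits. For a bound, a group below background was set on each array at the lowest detected signal, or at the probe's own value where that was higher. The method was tested on simulated data with independent noise, the same spread on vehicle as on CCl4 arrays, and few changed genes. In the real data far more genes were called for CCl4, so the shares that follow need not hold there. Between genotypes, log2 changes of 1 and 2 were called for 70.1% and 97% of the changed genes. For the response the shares were 31.3% and 81.8% in WT and 35.8% and 84.8% in KO. For the interaction they were 1.49% and 56.1%, so most simulated interactions of 1 were missed. False calls made up 3.33% to 7.41% of the calls.

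The members and lists were chosen with earlier results of these data known. Values on every array are given for the 8 called members with the smallest p between genotypes, the 3 largest and 3 smallest CCl4 responses and members not called for CCl4 in a genotype, and for lists the genes with the smallest p for CCl4. Genes named outside these rules are the other members, and a second probe where it was called differently. Also named are called cell type markers, and Ska3 and Depdc1b of the lists for their entry through the WT CCl4 arrays alone. Alternatives were other scaling, background, detection filters, probe rules, variance models, a replicate block, array weights and leaving out each CCl4 array. Promoters were scanned in Python 3.11.15.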

Additional observations from a re-analysis of the deposited data

Results flagged for a closer look

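The probe for Ttk, the kinase at the top of the spindle checkpoint, entered no comparison, because it was not above background on every array of any group. It was above background on WT CCl4 replicate 2 alone, with a normalised log2 intensity of 6.64, and on 0 of the 2 vehicle arrays. WT replicate 2 was also the array with the highest value of its group for 16 of the 26 measured members. Whether the single detection is real signal was not tested.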

How the results depend on the processing

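The number of members lower in KO after CCl4 was 10, and moved to 16 with median scaling, to 20 with the deposited values and to 4 with no filter. Leaving out 1 CCl4 array gave 5 to 9, with 6 without KO replicate 2. Over all genes the calls were 75 lower and 48 higher without KO replicate 3, 346 and 449 without WT replicate 3, and 261 and 210 with all arrays. Their median difference moved from -0.60 to -0.92 with the deposited table, and leaving out 1 array gave -0.75 to -0.47. Of the called members, Tpx2, Ckap2l and Plk1 kept their call under all 16 alternatives, and over the 10 genes 138 results kept the call and 22 lost it. Ckap2l had entered through the WT CCl4 arrays alone and was above background on 1 of the 3 KO CCl4 arrays. The WT response count was 22 to 25 and the KO count 20 to 24 under the alternatives. The median WT response moved to 2.42 with no background correction, 3.34 with the deposited table and 2.69 with no filter, and the KO median to 1.81, 2.79 and 2.18 under the same settings. Leaving out 1 array gave 2.81 to 3.02 in WT and 2.31 to 2.56 in KO. The interaction was called for 1 member (Cdc20) with median scaling, the deposited table, array weights or without WT replicate 1 (0 to 1 over left-out arrays), and for 3 (Cdc20, Prc1 and Cdca3) with trended robust variances. The causes of these moves were not tested.

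Signs turned only for differences that were not called. Between genotypes Mad2l1 turned to -0.0085 with median scaling and -0.17 with the deposited values, Spc24 to -0.037 and -0.20 under the same settings, and H2az1 to -0.11 with the deposited values. With 1 CCl4 array left out, Mad2l1 ran from -0.016 (without WT replicate 1) to 0.20, Spc24 from -0.017 (without WT replicate 1) to 0.27, H2az1 from -0.0022 (without WT replicate 1) to 0.14 and Plk4 from -0.33 to 0.085 (without KO replicate 2), with 0.024 without WT replicate 3. The WT response of Spc24 turned to -0.045 with the replicate block and ran from -0.029 (without WT replicate 3) to 0.26 with 1 array left out. The interaction of Mad2l1 ran from -0.14 to 0.072 (without KO replicate 2), with 0.024 and 0.014 without WT replicates 2 and 3, and that of Hmgb2 from -0.21 to 0.046 (without WT replicate 3).

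The replicate numbers did not pair the arrays: deviations of same-numbered KO and WT arrays correlated at -0.12, -0.11 and -0.013. With the replicate number as a block, 9 members were lower in KO, and Anln lost its call (adjusted p 0.0647). The block lowered the count of KO responses to 21, with Cdca8, Spc24 and Foxm1 no longer called (adjusted p 0.0968, 0.147 and 0.0616), and left that of WT responses at 23. Signal over background limits the vehicle values, since 16 members were below background on both vehicle arrays.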
